A study of Mus musculus with 8 samples.

Results

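The genes described here encode 10 cytokines that effector T helper cells secrete: Ifng, Il2, Il3, Il4, Il5, Il9, Il13, Il17a, Il21 and Csf2. They were chosen by symbol, and no threshold on their values was used. All 10 were found among the 52459 genes of the table. Interferon-gamma, the product of Ifng, is the signature cytokine of Th1 cells, and the products of Il4, Il5 and Il13 are those of Th2 cells. Il9 is the hallmark of Th9 cells, Il17a of Th17 cells and Il21 of follicular helper and Th17 cells. Il2 encodes the T cell growth factor, and Il3 and Csf2 encode growth factors of the myeloid lineage. Activated T cells switch these genes on when calcium entering through CRAC channels activates calcineurin and thereby the transcription factors of the NFAT family. STIM1 and STIM2 sense the filling of the endoplasmic reticulum and open these channels. Regulatory T (Treg) cells are characterized by Foxp3, which together with NFAT represses Il2 and other cytokine genes, so that Treg cells make little of the growth factor that they depend on.

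The study compared the transcriptomes of WT Treg cells and of Treg cells lacking both STIM proteins, without stimulation and after 16 h with 1 µg/ml of plate-bound antibodies to CD3 and CD28. CD4+CD25hi cells were sorted from pooled spleen and lymph nodes of several female mice per sample, all of the C57BL/6 strain, whose age the labels do not give. One pair of groups is labelled WT. The other, abbreviated DKO in the titles, carries Foxp3-YFPcre with floxed alleles that its label spells Stim1 fl/f Stim2 fl/fll. According to the methods, both cell types came from heterozygous females and were separated by YFPcre, whose expression is driven by Foxp3. Genotype therefore cannot be told apart from expression of the YFPcre allele. There were 2 libraries for each of the 4 groups, numbered 3 and 4 in unstimulated WT cells and 1 and 2 elsewhere. Stimulated and unstimulated libraries carry different lane numbers, 1 and 4, in the names of their read files, so that stimulation cannot be told apart from the lane. Because these are bulk libraries, fewer cells that make a cytokine and less RNA per cell cannot be told apart.

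Values are given as normalized counts, that is, reads on a gene after division by the size factor of the library. All values, 100%, could be turned back into whole reads. Between 11851853 and 16306540 reads were counted on genes per library, and 1 read equalled 0.759 to 1.48 normalized counts. Without stimulation, normalized counts of Stim1 were 1139 and 1377 in WT against 1538 and 1868 in DKO libraries, and they were 645 and 673 against 552 and 642 after stimulation. Stim2 had 906 and 908 against 904 and 744, and 665 and 782 against 620.2 and 696. Neither targeted gene was called different between genotypes in either state by limma (adjusted p = 0.236 and 0.721 without and 0.807 and 0.827 with stimulation for Stim1 and Stim2). A count over the whole gene also takes in reads from a transcript that lacks the deleted exon, and every direction below is that of the libraries labelled DKO. All 7 Treg markers, among them Foxp3, Cd4 and Cd3e, were above 0 in every group. Without stimulation they summed to 87136.5 to 93568 normalized counts in WT and 40591 to 48769 in DKO libraries. After stimulation the sums were 96882 to 115438 and 69853 to 88401. All 7 were lower in DKO cells in either state. Of these, 3 were called lower without stimulation, as were 3.35% of all tested genes, and 0 with it. Foxp3 had a log2 fold change of -0.98 without stimulation (limma adjusted p = 0.0591).

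To show the DNA in front of genes that were called after stimulation under each alternative, the 250 bases upstream of the annotated start of Il2, Il4 and Il13 are printed from RefSeq (GRCm38.p6), 5′ to 3′ on the strand of the gene, and that of Il9 is added because its difference between genotypes was the largest after stimulation. Capitals mark GGAAA or its reverse complement TTTCC, the core that NFAT proteins bind, and TGANTCA. With any base at N, TGANTCA is wider than TGACTCA and TGAGTCA, the sites of AP-1, which joins NFAT at many cytokine promoters. The Il2 window is chr3:37125955-37126204 and those of Il4 and Il13 are chr11:53618666-53618915 and chr11:53634703-53634952. The Il9 window is chr13:56482258-56482507, and all 4 genes lie on the minus strand.
Il2: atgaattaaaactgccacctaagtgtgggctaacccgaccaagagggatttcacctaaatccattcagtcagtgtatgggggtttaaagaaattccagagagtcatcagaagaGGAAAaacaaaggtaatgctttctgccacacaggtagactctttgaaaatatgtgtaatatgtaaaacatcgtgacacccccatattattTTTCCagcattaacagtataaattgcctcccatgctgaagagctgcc
Il4: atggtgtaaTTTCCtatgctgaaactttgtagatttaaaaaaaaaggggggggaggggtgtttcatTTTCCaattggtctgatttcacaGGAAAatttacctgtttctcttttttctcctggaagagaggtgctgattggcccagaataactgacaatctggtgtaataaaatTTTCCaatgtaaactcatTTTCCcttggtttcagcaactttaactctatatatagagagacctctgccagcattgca
Il13: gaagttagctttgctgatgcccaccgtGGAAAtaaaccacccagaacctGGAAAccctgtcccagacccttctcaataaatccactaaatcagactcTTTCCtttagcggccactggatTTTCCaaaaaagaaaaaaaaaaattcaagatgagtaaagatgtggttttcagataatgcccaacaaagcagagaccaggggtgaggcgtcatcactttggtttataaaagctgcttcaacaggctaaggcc
Il9: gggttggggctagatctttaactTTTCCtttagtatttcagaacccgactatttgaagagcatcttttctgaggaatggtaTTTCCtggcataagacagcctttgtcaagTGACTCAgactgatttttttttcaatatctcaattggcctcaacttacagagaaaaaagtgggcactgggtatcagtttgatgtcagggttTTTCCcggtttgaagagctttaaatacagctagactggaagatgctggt
In the windows of all 10 genes, searched on both strands, GGAAA occurred in 9, with a median of 2 matches, whereas 55.6% of 32851 promoter windows of this length held it. Il4 had 5 matches, Il13 had 4, and Il9 and Il21 had 3 each. At least 3 matches were present in 4 of the 10 cytokine windows and in 6.39% of all windows. Il17a, whose window held no GGAAA, and Il9 were the only ones with TGANTCA, which 6.75% of all windows held, and no match of one motif overlapped the other in these windows. In Il9 the match was TGACTCA and began 140 bases before the start, whereas the match in Il17a was TGAATCA. These matches describe the letters of the windows and were not tested for binding.

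Without stimulation, most cytokine transcripts were close to 0. A gene was called near zero in a group if its mean was under 10 normalized counts, and at the floor if no library of the group had more than 3 reads, equal to 2.28 to 4.43 normalized counts depending on the library. Of the 10 genes, 6 were near zero in unstimulated WT cells (Il3, Il4, Il5, Il9, Il13 and Csf2) and 7 in unstimulated DKO cells, where Il17a joined them. Il3, Il5, Il9 and Csf2 were at the floor in WT cells, as were Il3, Il9, Il13 and Csf2 in DKO cells. After stimulation, none of the 10 was near zero in WT cells and 1 was in DKO cells, Il9, with a mean of 8.79. The number of combinations of gene and group near zero was again 14 of 40 with values given as shares of the library's reads or rescaled to equal upper quartiles. As shares of reads the set differed: Il9 in stimulated DKO cells left it and Il17a in unstimulated WT cells joined it. For equal upper quartiles only the number was compared. No gene was near zero in all 4 groups.

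Il2 was low in resting cells and became the most abundant of the cytokine transcripts, per kilobase of exon, after stimulation. The unstimulated WT libraries had 17.3 and 17.7 normalized counts of Il2, and the unstimulated DKO libraries had 19.9 and 4.01. After stimulation, WT libraries had 1469.9 and 771 and DKO libraries 2248 and 266. Both DKO values fell outside the WT range in either state, one above and one below it. Ifng was the gene with the highest level per kilobase in unstimulated cells of both genotypes. Its values were 78.8 and 126 in WT and 142 and 25.4 in DKO cells without stimulation, and 899 and 322 in WT and 1201 and 198 in DKO cells with it. As for Il2, one DKO library lay above and one below both WT libraries in either state.

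The Th2 genes lie together on chromosome 11, at chr11:53612460-53618665 for Il4, chr11:53631323-53634702 for Il13 and chr11:53720794-53725103 for Il5 in GRCm38. Il4 had 4.32 and 8.86 normalized counts in unstimulated WT and 7.34 and 8.01 in DKO libraries, and 164 and 72.9 against 100.05 and 66.7 after stimulation. Il13 had 4.32 and 2.95 against 1.05 and 0, and then 313 and 94.9 against 146 and 38.8. Il5 had 0 and 1.48 against 5.24 and 1.34 in resting cells, and in stimulated cells it was the lowest of the 3, with 77.9 and 16.7 against 33.4 and 5.07. All stimulated values of Il4 and Il13 lay above all unstimulated ones, whereas the lower stimulated DKO library overlapped resting DKO cells for Il5. The genotypes overlapped in stimulated cells for each of the 3 genes.

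Il9 was the cytokine gene that separated the genotypes by the widest margin. Resting WT libraries had 2.16 and 0 normalized counts of Il9 and both resting DKO libraries had 0. Stimulated WT libraries had 182 and 53.9, whereas stimulated DKO libraries had 15.9 and 1.69. These correspond to 234 and 71 reads in WT against 20 and 2 reads in DKO libraries, and 2 reads have a 95% Poisson interval of 0.242 to 7.22 reads, which covers counting error only. Both WT libraries lay above both DKO libraries. By normalized counts, Il9 was the only cytokine gene whose mean stayed near zero in DKO cells after stimulation. That mean, 8.79, was close to the cut of 10, and as a share of reads Il9 was not near zero.

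Il17a was low in resting cells and higher after stimulation in both genotypes. It had 16.2 and 5.91 normalized counts in unstimulated WT and 5.24 and 2.67 in DKO libraries, and 331 and 153 against 170 and 33.8 after stimulation. Il21 ranked next to Ifng by resting level per kilobase, with 60.4 and 76.8 normalized counts in WT and 76.6 and 12.02 in DKO libraries. After stimulation it had 149 and 153 in WT libraries, the closest pair of stimulated libraries for any of these genes, and 143 and 10.1 in DKO libraries. Stimulated DKO cells thus spanned resting DKO cells for Il21, while WT libraries with and without stimulation did not overlap.

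Il3 and Csf2 are neighbours at chr11:54265085-54267279 and chr11:54247270-54249899 on the minus strand of chromosome 11. Il3 had 0 and 1.48 normalized counts in unstimulated WT and 0 in both unstimulated DKO libraries, and then 37.4 and 16.7 against 28.6 and 2.53. Csf2, which encodes GM-CSF, had 2.16 and 1.48 against 1.05 and 0 in resting cells and 88.1 and 52.4 against 71.5 and 9.29 in stimulated cells. Both genes overlapped between genotypes after stimulation, with 1 DKO library inside the WT range and the other below it.

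**Figure D1:**
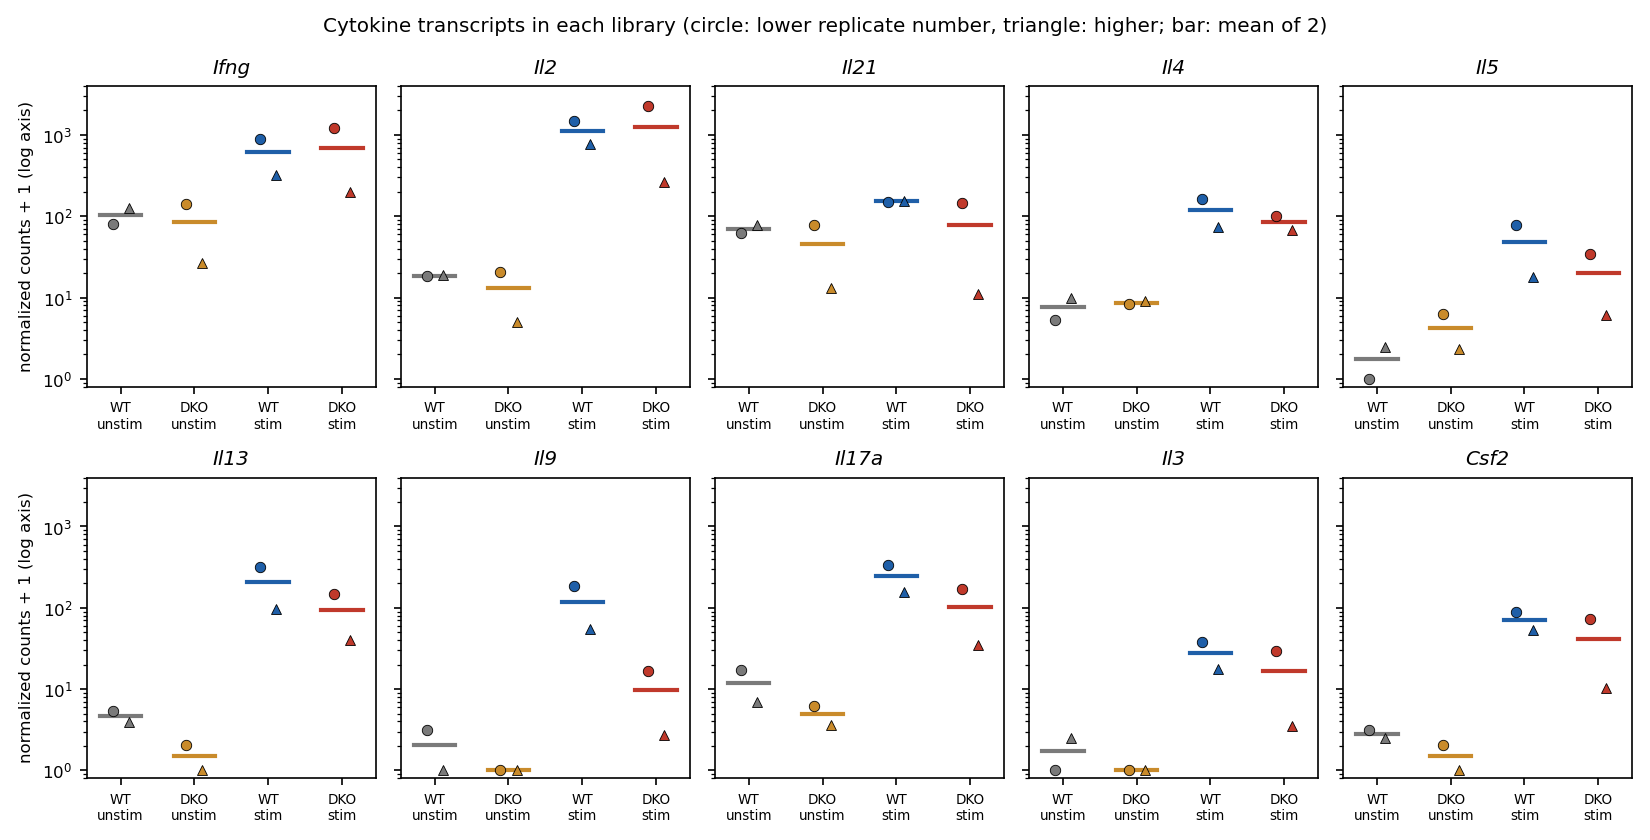
Normalized counts plus 1 (log axis) of the 10 cytokine genes in each of the 8 libraries, by genotype and stimulation. Circles are the lower and triangles the higher replicate number, and bars are means of 2 libraries. Stimulated groups lie above unstimulated ones for most genes, and the second stimulated DKO library is the lowest of the 4 stimulated libraries for all 10 genes.

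Levels of different genes were compared per kilobase of exon, with exon lengths of GENCODE vM1 (NCBIM37). In unstimulated WT cells the order of mean levels was Ifng (84.6 normalized counts per kilobase), Il21 (21.7), Il2 (15.3) and Il17a (9.44), and libraries of neighbouring genes did not overlap in these steps. The other 6 genes had 5.37 or less, and neighbours in that order overlapped. In stimulated WT cells the order was Il2 (979), Ifng (506), Il9 (220), Il17a (207), Il13 (169), Il4 (96.7), Csf2 (87.8), Il21 (47.8), Il3 (43.0) and Il5 (30.8). Neighbours overlapped at each step but the one from Csf2 to Il21. In stimulated DKO cells Il2 (1099) and Ifng (579) again came first, and a gap without overlap separated Ifng from Il17a (87.0). Il9 was the ninth there, with 16.4 normalized counts per kilobase.

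To ask which cytokine genes responded to stimulation, stimulated and unstimulated libraries of each genotype were compared with limma on the log2 scale (normalized counts plus 1), with all 8 libraries in the model. Calls required a p under 0.05 after Benjamini-Hochberg adjustment together with a fold change above 1.5. All 10 cytokine genes were among the 15419 genes that were tested because their mean over the 8 libraries was at least 10 normalized counts, and most passed that filter only through the stimulated groups. In WT cells, 8 of the 10 were called higher, where 10.2% of all tested genes were called higher, and none was called lower. Their median log2 fold change was 4.47, against 0.01 over all tested genes. In DKO cells, 6 were called higher, where 13.0% of all tested genes were, and the median was 3.30 against -0.03. Stimulated and unstimulated libraries did not overlap for all 10 genes in WT cells, a pattern that 35.0% of tested genes showed in that direction, and for 8 genes in DKO cells, against 30.8%.

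Il2 rose by a log2 fold change of 5.85 in WT cells (SE 0.89, limma adjusted p = 0.0025) and 6.24 in DKO cells (SE 0.89, adjusted p = 0.00144), which is 64.0-fold and 105-fold between means. Il13 rose by 5.24 in WT cells (SE 0.83, limma adjusted p = 0.00283) and 5.74 in DKO cells (SE 0.83, adjusted p = 0.00156). Between means, this is 56.0-fold in WT and, against a group at the floor, at least 25.9-fold in DKO cells. Il4 rose by 3.93 and 3.25 (SE 0.59 for both, limma adjusted p = 0.00228 and 0.0041), or 18.0-fold and 10.9-fold. These 3 genes were called in both genotypes under each alternative in which they were tested, that is 19 and 20 alternatives in WT and DKO cells for Il2 and 18 and 19 for Il4 and Il13. Il17a rose by 4.38 in WT and 4.01 in DKO cells (SE 0.80, limma adjusted p = 0.00489 and 0.00623), or 21.9-fold and 25.8-fold, and was called under 16 of 18 and 18 of 19 alternatives. The log2 fold change of low genes depends on the pseudocount and understates their change.

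The remaining calls, and that of Il17a in WT cells, depended on single libraries. In WT cells, Csf2 rose by a log2 fold change of 4.62 (SE 0.99, limma adjusted p = 0.00981), at least 18.3-fold, and Il9 by 5.82 (SE 1.17, adjusted p = 0.00746), at least 30.8-fold. Il5 rose by 4.57 (SE 1.15, limma adjusted p = 0.0183), at least 12.3-fold, and Il3 by 4.05 (SE 1.23, adjusted p = 0.0389), at least 7.06-fold. These 4 bounds set each resting library at 3 reads and hold for the mean of the stimulated libraries, not for each of them. Without WT unstimulated replicate 4, or without WT stimulated replicate 1, the calls in WT cells fell from 8 to 3, namely Il2, Il4 and Il13, where 2.54% and 2.72% of all tested genes were still called higher. Without WT unstimulated replicate 3, 5 were called, among them Il9 (3.28% of all tested genes), and without WT stimulated replicate 2, 6 were called, among them Il5 and Il9 (2.23%). Ifng, with a log2 fold change of 2.42 in WT cells (95% interval 0.42 to 4.43, limma adjusted p = 0.0767), and Il21, with 1.14 (-1.22 to 3.50, adjusted p = 0.467), did not pass the test. Both were called when the 4 WT libraries were fitted alone.

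In DKO cells, Csf2 rose by a log2 fold change of 4.25 (SE 0.99, limma adjusted p = 0.0124), at least 11.3-fold between means, and Ifng by 2.99 (SE 0.90, adjusted p = 0.035), or 8.38-fold. Neither was called without DKO stimulated replicate 1 or without DKO unstimulated replicate 2, and Ifng was not called without WT unstimulated replicate 3 or 4 either (adjusted p = 0.0598 and 0.0594). Il3 had a log2 fold change of 3.35 (95% interval 0.61 to 6.10, limma adjusted p = 0.0718) and Il9 one of 2.75 (0.15 to 5.35, adjusted p = 0.11), and neither passed the test. On recovered reads, edgeR called Il3 (adjusted p = 0.041) and DESeq2 called Il9 (adjusted p = 0.0125). Il5 had 1.92 (-0.64 to 4.48, limma adjusted p = 0.244) and Il21 0.33 (-2.03 to 2.69, adjusted p = 0.843). For Il21 the sign of the change in DKO cells turned when DKO stimulated replicate 1 or DKO unstimulated replicate 2 was left out.

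**Figure D2:**
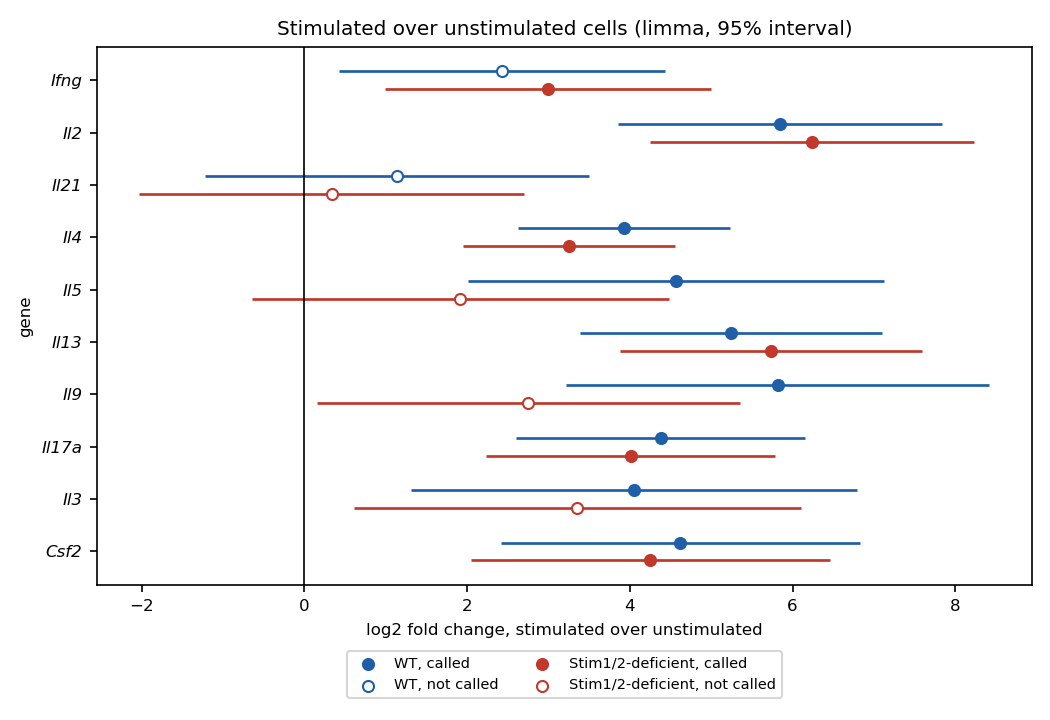
Log2 fold change of stimulated over unstimulated cells for each cytokine gene (limma, log2 of normalized counts plus 1), with 95% intervals, in WT and DKO cells. Filled points passed the test: 8 genes in WT and 6 in DKO cells, with Il2 at 5.85 and 6.24 and Il21 at 1.14 and 0.33.

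To ask whether loss of STIM1 and STIM2 changed the cytokine genes, DKO and WT libraries were compared within each state. In unstimulated cells none of the 10 genes was called by limma, where 4.73% of all tested genes were, and none had an unadjusted p under 0.05. The edgeR and DESeq2 tests on recovered reads also called none of the 10, while calling 3.14% and 8.68% of all tested genes. The log2 fold changes of DKO over WT were below 0 for 8 genes, with a median of -0.84 against -0.01 over all tested genes. They ranged from -1.68 for Il13 (95% interval -3.53 to 0.18, limma adjusted p = 0.271) to 1.28 for Il5 (-1.28 to 3.84, adjusted p = 0.561). Il5 had 0 and 1 reads in unstimulated WT and 5 and 1 in DKO libraries, and Il13 had 4 and 2 against 1 and 0, so that these differences rest on few reads. Both DKO libraries were below both WT libraries for Il13, Il17a and Csf2, a pattern seen in 27.1% of all tested genes.

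In stimulated cells all 10 log2 fold changes of DKO over WT were below 0, with a median of -1.34 against 0.02 over all tested genes, but none of the 10 was called by limma, where 0.272% of all tested genes were. Il9 alone had an unadjusted p under 0.05. Its log2 fold change was -3.90 (95% interval -6.50 to -1.29, limma adjusted p = 0.165), and its mean was 13.4-fold higher in WT cells. DESeq2 on recovered reads called Il9 (log2 fold change -3.74, adjusted p = 0.0107), and 3.57% of all tested genes, whereas edgeR called none of the 10 and 0.00649% of all. In simulated counts with no genotype difference in stimulated cells, DESeq2 called 15 of 15419 genes, and limma and edgeR 1 each. Of 200 genes simulated with a 4-fold change in unstimulated cells, DESeq2 called 143, limma 125 and edgeR 124. The simulated counts were drawn independently, with no shift shared by the genes of a replicate, so they do not decide the call of Il9. Without DKO stimulated replicate 1, Il9 (-5.22, limma adjusted p = 0.0493) and Il21 (-3.77, adjusted p = 0.0406) were called, as were 4.94% of all tested genes. Il21 had a log2 fold change of -1.93 (95% interval -4.29 to 0.43, limma adjusted p = 0.469) with all libraries. Il9 and Il21 were the only genes of the 10 for which both DKO libraries lay below both WT libraries, a pattern seen in 23.1% of all tested genes.

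The other 8 genes overlapped between genotypes after stimulation, and their intervals included changes in either direction. Il17a had a log2 fold change of -1.55 (95% interval -3.33 to 0.22), Il5 of -1.37 (-3.93 to 1.19), Il3 of -1.35 (-4.10 to 1.39) and Csf2 of -1.34 (-3.55 to 0.87). For Il13 it was -1.18 (-3.04 to 0.68) and for Il4 -0.42 (-1.72 to 0.88). Il2 and Ifng had log2 fold changes of -0.46 (-2.45 to 1.53) and -0.14 (-2.14 to 1.86), although their mean counts were 1.12-fold and 1.14-fold higher in DKO cells. The sign of both turned with edgeR (0.16 for Il2 and 0.19 for Ifng) and DESeq2 (0.17 and 0.20). These intervals do not show that the genotypes were alike, since they reach beyond 2-fold in at least one direction for each gene.

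The genotype difference itself was not found to change with stimulation. None of the 10 interaction terms passed the test in limma, where 0.00% of all tested genes did, and none had an unadjusted p under 0.05 or was called by edgeR or DESeq2. The terms ranged from -3.07 for Il9 (95% interval -6.75 to 0.61, limma adjusted p = 0.646) to 0.57 for Ifng (-2.26 to 3.40, adjusted p = 0.93). The larger number of calls in WT than in DKO cells is therefore not shown to be a difference between genotypes.

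**Figure D3:**
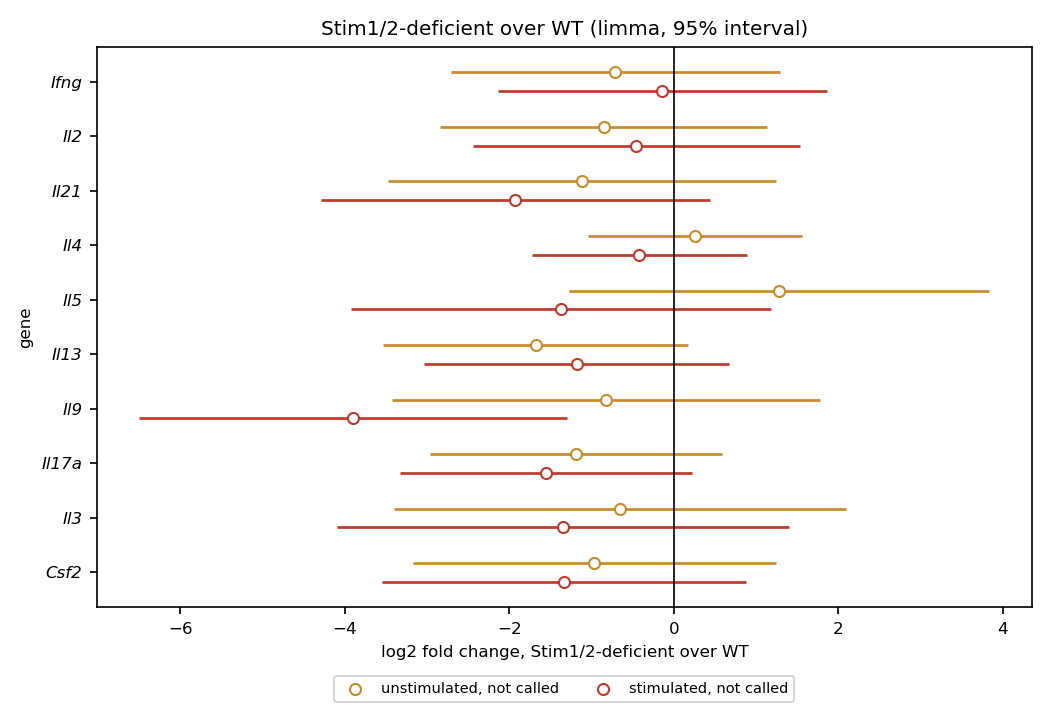
Log2 fold change of DKO over WT for each cytokine gene (limma, log2 of normalized counts plus 1), with 95% intervals, in unstimulated and stimulated cells. None passed the test. All 10 stimulated values lie left of 0, and the interval of Il9, -6.50 to -1.29, is the only one that excludes 0.

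The 2 stimulated libraries of a genotype differed more for the cytokine genes than for genes at large, and this touches each comparison above. DKO stimulated replicate 2 was the lowest of the 4 stimulated libraries for all 10 genes. WT stimulated replicate 1 was the highest for 7 genes, DKO stimulated replicate 1 for Ifng and Il2, and WT stimulated replicate 2 for Il21. Replicate 1 exceeded replicate 2 by a median of 2.25-fold in WT cells, from 0.971-fold for Il21 to 4.67-fold for Il5, and by 7.14-fold in DKO cells, from 1.5-fold for Il4 to 14.1-fold for Il21. Over all genes with a value the median ratios were 0.990 and 0.988, and 7.78% and 10.3% of genes were more than 2-fold higher in replicate 1, compared with 7 and 9 of the 10 cytokine genes. 

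Summed markers of other cell types were also higher in replicate 1, apart from those of plasma cells. Across the 8 B cell markers, the sum was 923 normalized counts in WT stimulated replicate 1 and 175 in replicate 2, and 1336 and 275 in the DKO libraries. The 8 markers of CD8 T and NK cells summed to 899 and 257 in WT and 1502 and 347 in DKO libraries, with Gzma at 435 and 47.8 in WT and 588 and 43.9 in DKO libraries. Of those compared, 5 of 7 in WT and all 6 in DKO cells were higher in replicate 1. Cd8b1 (89.6 and 131) and Ncr1 (38.2 and 41.0) were lower in replicate 1 of WT cells. Those of gamma delta T cells summed to 340 and 151 in WT and 525 and 310 in DKO libraries, and those of myeloid cells to 267 and 116 and to 425 and 347. Of the myeloid markers compared, 4 of 5 in WT and 3 of 6 in DKO cells were higher in replicate 1. None of the B cell, CD8 T and NK cell or gamma delta T cell markers was at 0 in both stimulated libraries of a group, and among the myeloid markers C1qa and Mrc1 were at 0 in all 4 stimulated libraries. The Treg markers went the other way, with 96882 and 115438 in WT and 69853 and 88401 in DKO libraries. So did the sum of the 4 plasma cell markers, with 1976 and 2064 in WT and 3061 and 3421 in DKO libraries. Most of that sum was Xbp1. Jchain alone of the 3 plasma cell markers compared was higher in replicate 1, with 224 and 34.9 in WT and 433 and 144 in DKO libraries. The 8 markers of mast cells and basophils, which also make Th2 cytokines, summed to 18.7 and 2.28 in WT and 73.1 and 32.1 in DKO libraries, and 4 of them were at 0 in stimulated WT cells. The part of these markers in the cytokine values was not tested.

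A like pattern stood in unstimulated DKO cells, where replicate 1 had higher normalized counts than replicate 2 for 7 of the 8 cytokine genes above 0, all but Il4. For Il13 and Csf2 this rests on 1.05 against 0, where 1 read equalled 1.05. For Il5 and Il17a it rests on 5.24 against 1.34 and 2.67. The share of all genes that were higher in this replicate 1 was not computed. In replicate 1 the B cell markers summed to 3020, the myeloid markers to 7500 and the CD8 T and NK cell markers to 1281 normalized counts. These sums were 709, 1261 and 409 in replicate 2 and 290 to 329, 377 to 378 and 337 to 372 in the WT libraries. The part of these markers in the resting values of Ifng and Il2 was not tested either. Without both stimulated libraries numbered 1, an alternative chosen after seeing the data, the calls fell to 4 in WT and 3 in DKO cells (2.35% and 4.13% of all tested genes), and Il2, Il4 and Il13 were among them in both genotypes.

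**Figure D4:**
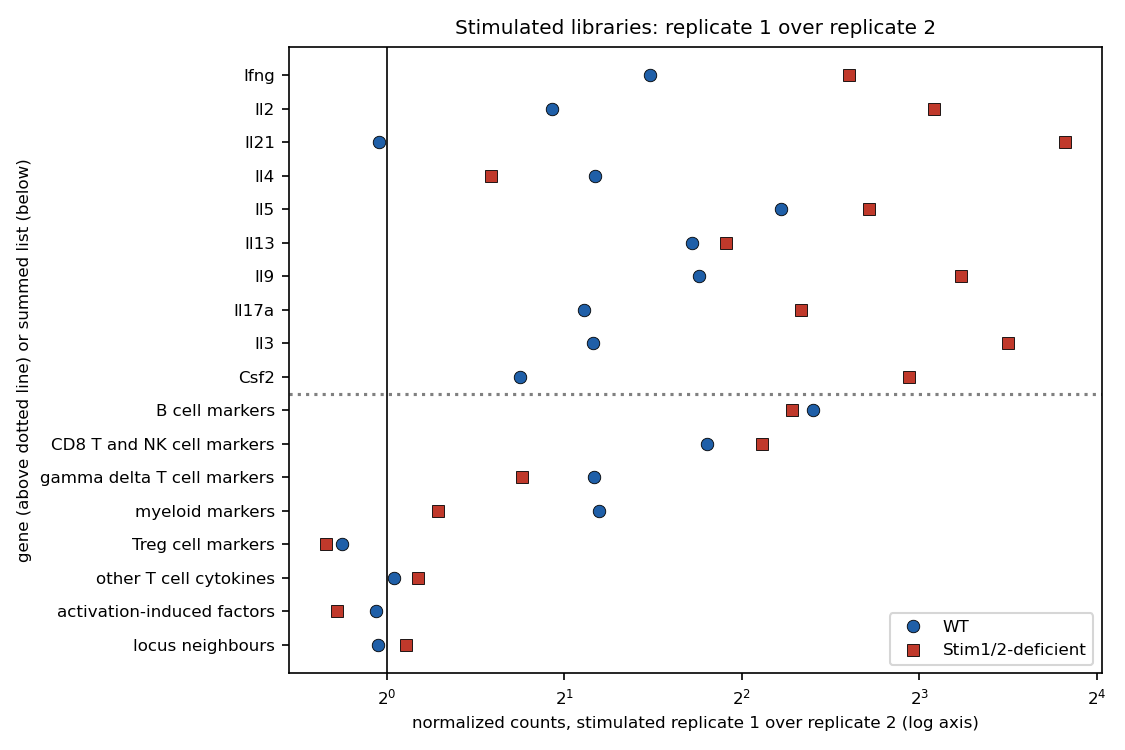
Ratio of stimulated replicate 1 over replicate 2 (log axis) in WT and DKO cells for the 10 cytokine genes (above the dotted line) and for summed gene lists (below it). Cytokine genes and the B cell and CD8 T and NK cell markers lie to the right of 1 apart from Il21 in WT cells, whereas Treg markers lie to the left of it.

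Among 20 other cytokine genes of T cells, 18 could be compared between the stimulated replicates. The ratio of replicate 1 over replicate 2 had a median of 1.02 in WT cells, with 9 genes above 1 and 1 over 2-fold, and a median of 1.51 in DKO cells, with 14 above 1 and 8 over 2-fold. The ratio of their summed counts was 1.03 in WT and 1.13 in DKO cells. With stimulation, 4 of 18 tested genes of this list were called higher in WT cells and 2 lower, and 5 higher and none lower in DKO cells. Over all tested genes, 10.2% were called higher and 13.1% lower in WT cells, and 13.0% higher and 12.0% lower in DKO cells, and these shares are the background of the lists that follow. Lif, a cytokine of the interleukin-6 family, rose by log2 fold changes of 3.64 in WT and 4.12 in DKO cells. Lta, encoding lymphotoxin-alpha, rose by 3.17 and 2.91, and Tnf by 1.95 and 1.52. Areg, a growth factor of the EGF family, fell by 2.75 on the log2 scale in WT cells. Between genotypes, Il10, encoding an anti-inflammatory cytokine of Treg cells, had 885 and 923 normalized counts in unstimulated WT and 50.3 and 56.1 in DKO libraries. Il10 was called lower in DKO cells without stimulation (log2 fold change -4.06, SE 0.36, limma adjusted p = 0.00106) and with it (-2.34, SE 0.36, adjusted p = 0.0392). Areg and Csf1 were the other genes of the list called lower in unstimulated DKO cells, and none was called higher in either state. The largest stimulated difference in the list, not called, was that of Il22, with a log2 fold change of -3.22. Stimulated libraries had 47.5 and 69.85 normalized counts of Il22 in WT and 20.65 and 0.84 in DKO cells. Il17f had 193 and 144 against 115 and 3.38.

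Of 15 tested genes for receptors through which these cytokines act, 1 was called higher and 3 lower with stimulation in WT cells, and 2 higher and 3 lower in DKO cells. Il2ra, the high-affinity chain of the receptor for the product of Il2, rose by log2 fold changes of 2.08 in WT and 2.62 in DKO cells. Il17ra fell by 1.79 and 1.72 and Il21r by 1.55 and 1.75 on the log2 scale. Il9r, the receptor gene for the product of Il9, was called lower in DKO cells, with a log2 fold change of -3.91, and had -3.00 in WT cells (limma adjusted p = 0.0541), and the difference between these changes did not pass the test (adjusted p = 0.885). No receptor gene was called between genotypes in either state. The largest stimulated difference was that of Il9r, with a log2 fold change of -3.11 (SE 1.00, limma adjusted p = 0.192), where both WT libraries (32.7 and 15.2 normalized counts) lay above both DKO libraries (6.35 and 0).

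Of 18 tested transcription factors that direct the helper lineages, 6 were called lower in DKO cells and none higher without stimulation, where 3.35% of all tested genes were called lower. Their median log2 fold change was -0.75, against -0.01 over all tested genes. Batf, an AP-1 factor required for Th9 and Th17 cells, had 881 and 734 normalized counts in WT and 224 and 162 in DKO libraries, a log2 fold change of -2.07 (SE 0.27, limma adjusted p = 0.00593). Irf4, its partner factor, had 3543 and 3498 against 862 and 1029.7 (-1.90, SE 0.27, limma adjusted p = 0.0088). Rora and Bhlhe40 had log2 fold changes of -2.33 and -2.28, and Maf and Ahr were the other factors called.

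In stimulated cells, Batf alone of the lineage factors was called, with 1379 and 1186 normalized counts in WT and 464 and 305 in DKO libraries (log2 fold change -1.76, SE 0.27, limma adjusted p = 0.0392). Irf4 rose with stimulation in both genotypes, by log2 fold changes of 1.79 in WT and 3.32 in DKO cells, and reached 12882 and 11469 against 13241 and 6722. Tbx21, the Th1 factor that activates Ifng, rose by 3.55 and 4.18. Irf4 and Tbx21 were the only lineage factors called higher in WT cells, where 4 were called lower, and 3 were called higher and 3 lower in DKO cells. Rora fell by 3.83 in WT and 2.54 in DKO cells on the log2 scale, Bcl6, the factor of follicular helper cells, by 3.54 and 2.14, and Bhlhe40 by 3.49 and 1.304. Gata3, the Th2 factor, was not called in any comparison, and its log2 fold change between genotypes was -0.95 in stimulated cells (limma adjusted p = 0.0854).

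Among 20 activation-induced factors, such as those of the NFAT, AP-1 and NF-kB families, 2 were called higher and 10 lower with stimulation in WT cells, and 1 higher and 8 lower in DKO cells. After stimulation, Fosb and Fos had log2 fold changes of -5.79 and -5.48 in WT and of -7.34 and -4.39 in DKO cells, and Egr2 was higher by 2.37 in WT cells. Nfatc1, an NFAT gene that is itself induced by NFAT, was the only one called between genotypes without stimulation (log2 fold change -0.80, SE 0.20, limma adjusted p = 0.048), and none was called with it. Of 15 tested factors that restrain cytokine genes, 6 were called lower in each genotype after stimulation, and none was called higher in WT and 3 in DKO cells (Prdm1, Ikzf4 and Cbfb). The largest fall in both genotypes was that of Zfp36, an RNA-binding protein that promotes decay of cytokine transcripts, at -2.46 in WT and -1.89 in DKO cells. In unstimulated DKO cells, Prdm1, which represses Il2, had a log2 fold change of -2.74, and Ikzf2 and Zfp36l1 were also called lower and Bach2 higher.

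Genes that lie next to the cytokine genes were mostly not called. Of 22 neighbours, 15 were tested, and 3 were called higher and 1 lower with stimulation in WT cells and 4 higher and none lower in DKO cells. Bbs12, in the region of Il2 and Il21 on chromosome 3, rose by log2 fold changes of 3.60 in WT and 3.80 in DKO cells, and Uqcrq, beside the Th2 locus, by 1.75 and 2.07. Rad50, which holds the control region of the Th2 locus, had log2 fold changes of 0.18 and 0.00, neither called. Mcm3 was the only neighbour called between genotypes, with a log2 fold change of -1.94 in unstimulated cells. In GENCODE vM1 the exons of Il4 overlap those of Kif3a on the opposite strand, and Kif3a had 72.6 to 183 normalized counts per library. Adad1, which spans Il2 in GENCODE vM1 without overlapping its exons, had 24.2 and 3.80 normalized counts in stimulated WT and 33.4 and 0 in stimulated DKO libraries. The sources used here differ on whether the library kit kept the strand, so reads of Il4 and Kif3a, and those of Il5, Il21 and Csf2 and their antisense transcripts, may not be told apart. The antisense genes of Il5, Il21 and Csf2 had at most 2.10 normalized counts in any library.

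Across the 8 libraries, the log2 values of the 10 cytokine genes moved together, with a median Pearson's r of 0.905 over 45 pairs, from 0.325 for Il4 and Il21 to 0.991 for Il17a and Csf2. The genes share the difference between stimulated and unstimulated libraries, so these r values are given as a description. By the same measure, the tested genes most like Il2 were Tmem209 (r = 0.996), Mcts1 (0.993) and Knop1 (0.992). Those most like Il9 were Cmtr2 (0.984), Fhl3 (0.981) and Eloc (0.975), and those most like Il13 were D630039A03Rik (0.995), Abce1 (0.995) and Naa10 (0.993). Il17a was nearest to Smyd2 (0.991) and Csf2 (0.991), and Csf2 to Ecd (0.994). For Il4 the nearest was Zfp948 (0.992), for Ifng Gemin2 (0.980), for Il3 Zfp961 (0.980), for Il5 Yars2 (0.981) and for Il21 C2cd2 (0.980).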

How the data were processed

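The 8 RNA libraries of sorted Treg cells, 2 per group, were grouped as labelled. The deposited values are a signal: numbers of reads per gene, which the authors scaled with one size factor for each library and gave to 2 decimals. On how reads were processed, the sources used here differ: the methods describe single 50 nt reads from a non-stranded kit, Bowtie and NCBIM37, with HTSeq counts, whereas the labels give a stranded kit and the submitters' processing notes list bcl2fastq 1.8.4, STAR 2.7, DESeq2 and mm10. Of the 52459 symbols, 35095 matched RefSeq (GRCm38.p6), whose positions are printed, and 28801 matched GENCODE vM1. Whole reads were recovered by division (tolerance 0.006 normalized counts).

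Normalized counts plus 1 were taken to log2, and limma 3.58.1 (lmFit, then eBayes with its trend option; R 4.3.3) was applied to all genes whose mean reached 10, with one residual spread shared by 4 groups. Tests were 2-sided and adjusted by Benjamini and Hochberg within a comparison. The limma p-values rest on the spread between the 2 pools of mice of a group, taken over all 4 groups and moderated across genes. They do not measure the spread of the compared groups alone. An exact permutation test of 2 libraries against 2 cannot give a p below 0.333 and was not used. As alternatives, the pseudocount was set to 0.1 or 5, the filter to any value above 0 or a mean of 100, and the scaling to equal totals or equal upper quartiles. Recovered reads were tested with edgeR 4.0.16 (quasi-likelihood) or DESeq2 1.42.0. Fits were also made to the 4 libraries of a comparison alone, with a replicate block, and with each library left out. Leaving out both stimulated libraries with the same number was added after seeing the data. The limma, edgeR and DESeq2 fits were tried on simulated counts, whereas the other steps were not. The cytokine genes and the other lists were chosen with earlier results of these data known. Named genes were all 10 cytokine genes, from each list up to 4 called genes with the largest change, the nearest genes by Pearson's r, and Stim1, Stim2 and Foxp3. Gata3, Rad50, Gzma, Jchain, Xbp1, Il22, Il17f, Kif3a and Adad1 were added after their values were seen. Fold bounds set a group at the floor to 3 reads per library and compare means, so that a single stimulated library can lie below them.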

Additional observations from a re-analysis of the deposited data

How the results depend on the processing

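The alternatives changed no call of a cytokine gene between genotypes in unstimulated cells, nor any interaction term. Between genotypes in stimulated cells, DESeq2 called 1 gene (Il9), and with each library left out in turn 0 to 2 were called. For stimulation in WT cells, 8 genes were called, and all 10 with the 4 WT libraries alone, but 1 when means of 100 were required, where only Ifng and Il2 were tested, and 4 without both stimulated libraries numbered 1, with 3 to 9 when each library was left out. In DKO cells, 6 genes were called, and 7 with edgeR (Il3 added), 7 with DESeq2 (Il9 added) and 8 without DKO stimulated replicate 2 (Il3 and Il9 added), but 4 with the 4 DKO libraries alone, 2 when means of 100 were required and 3 without both stimulated libraries numbered 1. In the 6 lists of other cytokines, receptors, factors and neighbours, markers of cell types aside, 15 genes were called between genotypes without stimulation, 11 with edgeR and 26 with DESeq2. The cause of these shifts was not tested, apart from the fewer genes or libraries that an alternative keeps.

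Log2 fold changes of DKO over WT turned sign when each library was left out in turn, from -1.93 to 0.50 for Ifng, -1.88 to 0.18 for Il2, -0.19 to 0.70 for Il4 and -2.41 to 0.17 for Il21 in unstimulated cells. In stimulated cells these ranges were -1.44 to 1.16 for Ifng, -1.997 to 1.08 for Il2, -2.88 to 0.18 for Il3, -1.00025 to 0.16 for Il4 and -2.74 to 0.072 for Csf2. Ifng and Il2 also turned with edgeR (0.19 and 0.16), DESeq2 (0.20 and 0.17) and without both stimulated libraries numbered 2 (0.42 and 0.61). The interaction terms of 7 genes turned sign when each library was left out, from -0.73 to 1.87 for Ifng, -1.14 to 1.93 for Il2, -2.23 to 0.84 for Il3, -0.44 to 1.44 for Il13, -1.52 to 0.78 for Il17a, -2.65 to 1.04 for Il21 and -1.78 to 1.04 for Csf2. The stimulation change of Il21 in DKO cells ranged from -1.51 to 2.18, and was -1.51 without both stimulated libraries numbered 1.

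A replicate block gave 0 calls between genotypes in stimulated cells and 7 in place of 6 for stimulation in DKO cells. Deviations of same-numbered libraries correlated with r of 0.167 and 0.257 over genes, but no label says that a number marks a shared pool, so the numbers were not taken as pairs. With 2 libraries a group and under 10 normalized counts for most resting groups, differences of a few reads were not detectable.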
